A study of Rattus norvegicus with 54 samples.

Results

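The 57 probe sets described here report subunits and assembly factors of the mitochondrial respiratory chain and of ATP synthase in fetal rat gubernaculum and testis. They were taken from 3 lists of selected probe sets deposited by the authors, wherever the title names ATP synthase, cytochrome c oxidase, NADH dehydrogenase, ubiquinol-cytochrome c or succinate dehydrogenase. The lists hold 3922 of the 15923 probe sets on the array, and 58 titles matched, from which the muscle isoform Cox6a2 was taken out. Complex I had 27 probe sets, complex II 3, complex III 5, complex IV 11 and complex V, the ATP synthase, 11. Of the complex IV entries 2 are assembly factors rather than subunits, Cox15 and 1373649_at, which is listed as similar to COX10. Of the 57, 51 carried 1 gene symbol, for 49 genes, because Ndufv3 and Sdhd have 2 probe sets each. A further 5 carried several symbols and 1 carried none, and these 6 are given by probe set ID. All but 1 of the named genes lie in the nuclear genome, the exception being ND3, which mitochondrial DNA encodes. The lists were selected by the authors for differences on these same arrays (54 of the 57 are in the gubernaculum list, 14 in the LE/wt list and 2 in the testis list, with overlaps), so the direction of the set as a whole is not independent evidence.

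LE/orl is the cryptorchid rat strain of the series, in which testes fail to descend, and LE/wt its wildtype counterpart. Left gubernacula of LE/orl males were sampled at gestational day (GD) 18, GD19 and GD20 with n = 4 fetuses each, and right gubernacula at GD20 with n = 3. The same male groups exist for LE/wt, together with LE/wt females at GD18 (n = 4), in which both sides of 1 fetus were combined. Left testes were sampled at GD17 and GD19 with n = 5 fetuses per strain and day. In all, 34 gubernaculum arrays in 9 groups and 20 testis arrays in 4 groups were measured as 1 fetus per array, with no treatment and no transgene. RNA was amplified over 2 cycles for gubernaculum and 1 cycle for testis, so levels are compared only within a tissue. The gubernaculum is the cord of mesenchyme and developing muscle that draws the fetal testis downward. All 12 named markers of striated muscle had group means above the minimum log2 signal of 5 in every gubernaculum group. In each testis group 11 of the 12 lay under it. The markers were named through the authors' lists, which were selected on these same arrays. Signal in gubernaculum was thus favoured in advance, and this is a weak check of the label.

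Oxidative phosphorylation passes electrons from NADH through complex I, and from succinate through complex II, to ubiquinone, then through complex III and cytochrome c to complex IV, which reduces oxygen. Complexes I, III and IV pump protons across the inner mitochondrial membrane, and complex V lets them flow back to make ATP. Fetal muscle precursors build up this machinery as they differentiate, and most of its subunits are nuclear genes whose products are imported into the mitochondrion.

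Before the results, 1 property of the arrays has to be stated. The 5′ to 3′ index, the mean over the beta-actin and GAPDH control probe sets of the 5′ minus the 3′ log2 signal, falls when RNA or its amplified copies are short. It lay between −7.23 and −6.06 in 13 of the 15 LE/orl gubernaculum arrays, against −4.73 to −3.46 in the 19 LE/wt arrays. The exceptions were LE/orl GD18 array A at −4.16 and LE/orl GD19 array D at −4.32, inside the range over all LE/wt arrays. Array A lay within the LE/wt males of GD18 (−4.23 to −3.73). Array D lay below the LE/wt males of GD19 (−3.92 to −3.59). It was inside the whole range only through the LE/wt females (−4.73 to −3.93), so it was not matched to its day in this index. The authors' deposited means for LE/orl GD18 and GD19 omit exactly these 2 arrays, and their methods text calls the first an outlier. At GD20 no LE/orl array was free of the low index, so strain and 5′ signal cannot be told apart on that day. Strain results at GD18 and GD19 are therefore also given for these 2 arrays alone. In what follows, the 2 arrays means both of them against LE/wt of both days, and the counts of each complex are given for GD18 array A on its own day too. In testis the index ran from −1.53 to −0.999 in LE/orl and from −1.45 to −1.07 in LE/wt. All 57 probe sets passed the minimum signal in both tissues, and none had a group mean under it.

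Nuclear respiratory genes are known targets of the transcription factor NRF1 and of GABP, an ETS family factor also called NRF2. Of the 49 genes, 38 had a promoter in the RefSeq table of assembly GRCr8. In the 250 bases before the start site, the NRF1 core CGCATGC, or GCATGCG on the other strand, occurred in 6 of these 38 (15.8%), against 861 of all 27457 promoters (3.14%). The ETS core CCGGAAG, or CTTCCGG, occurred in 13 (34.2%) against 2126 (7.74%). A match of letters is a description and not a binding site. Below are 3 of the promoters with an NRF1 core, with the matched letters in capitals. Ndufa11 (chr9:1637364-1637613, plus strand) is shown because it ranked high in the strain, sex and LE/wt day comparisons, and it had 4 matches, which overlap on both strands. Atp5po (chr11:44657484-44657733, minus strand) is an ATP synthase stalk subunit called in the same directions. It had 2 matches, which overlap on both strands in the same stretch. Sdhb (chr5:158547684-158547933, plus strand) had 1 NRF1 and 1 ETS match, and it was called neither between the sexes nor between the LE/wt days.
Ndufa11: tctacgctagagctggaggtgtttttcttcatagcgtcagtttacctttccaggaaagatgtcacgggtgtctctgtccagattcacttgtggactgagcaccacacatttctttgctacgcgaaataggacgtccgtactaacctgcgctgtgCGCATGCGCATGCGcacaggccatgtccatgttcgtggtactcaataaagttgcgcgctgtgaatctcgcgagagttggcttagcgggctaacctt
Atp5po: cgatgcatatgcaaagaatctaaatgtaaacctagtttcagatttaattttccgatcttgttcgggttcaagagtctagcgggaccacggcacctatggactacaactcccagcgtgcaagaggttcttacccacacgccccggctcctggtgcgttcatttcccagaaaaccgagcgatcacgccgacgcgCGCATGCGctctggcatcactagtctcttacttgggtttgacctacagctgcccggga
Sdhb: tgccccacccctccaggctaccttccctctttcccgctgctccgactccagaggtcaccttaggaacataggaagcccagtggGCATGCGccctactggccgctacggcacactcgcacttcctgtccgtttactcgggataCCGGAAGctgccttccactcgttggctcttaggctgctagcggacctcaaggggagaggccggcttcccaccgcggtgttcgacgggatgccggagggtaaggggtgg

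Between the strains at GD18, most subunits were lower in LE/orl gubernaculum. Of the 57 probe sets, 47 were lower and 5 higher, beside 24.1% lower and 27.2% higher among all 8872 probe sets tested, and the median difference, LE/orl minus LE/wt, was −1.60 on the log2 scale. At GD19, 45 were lower and 3 higher (25.9% and 26.6% of all), with a median of −1.64. Over both days, 47 were lower and 6 higher (31.1% and 34.4% of all), with a median of −1.74. In bulk tissue, fewer cells of a type and less RNA per cell cannot be told apart. Set against LE/wt of both days, LE/orl GD18 array A and GD19 array D alone gave 38 lower and 4 higher (21.5% and 24.1% of all), with a median of −0.89. On its own day array A called 28 lower and 3 higher at GD18 (9.33% and 12.6% of all), with a median of −0.76, and array D called 37 lower and 1 higher at GD19 (17.3% and 18.4% of all), with a median of −1.01. These by-day values rest on 1 LE/orl array each, whose spread was taken from the other groups. With the authors' exclusions, which leave these 2 arrays out, 49 were lower and 6 higher (32.7% and 36.6% of all), with a median of −1.82. The members called lower thus outnumbered those called higher in each selection, and the median was nearer to 0 in the 2 arrays.

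**Figure D1:**
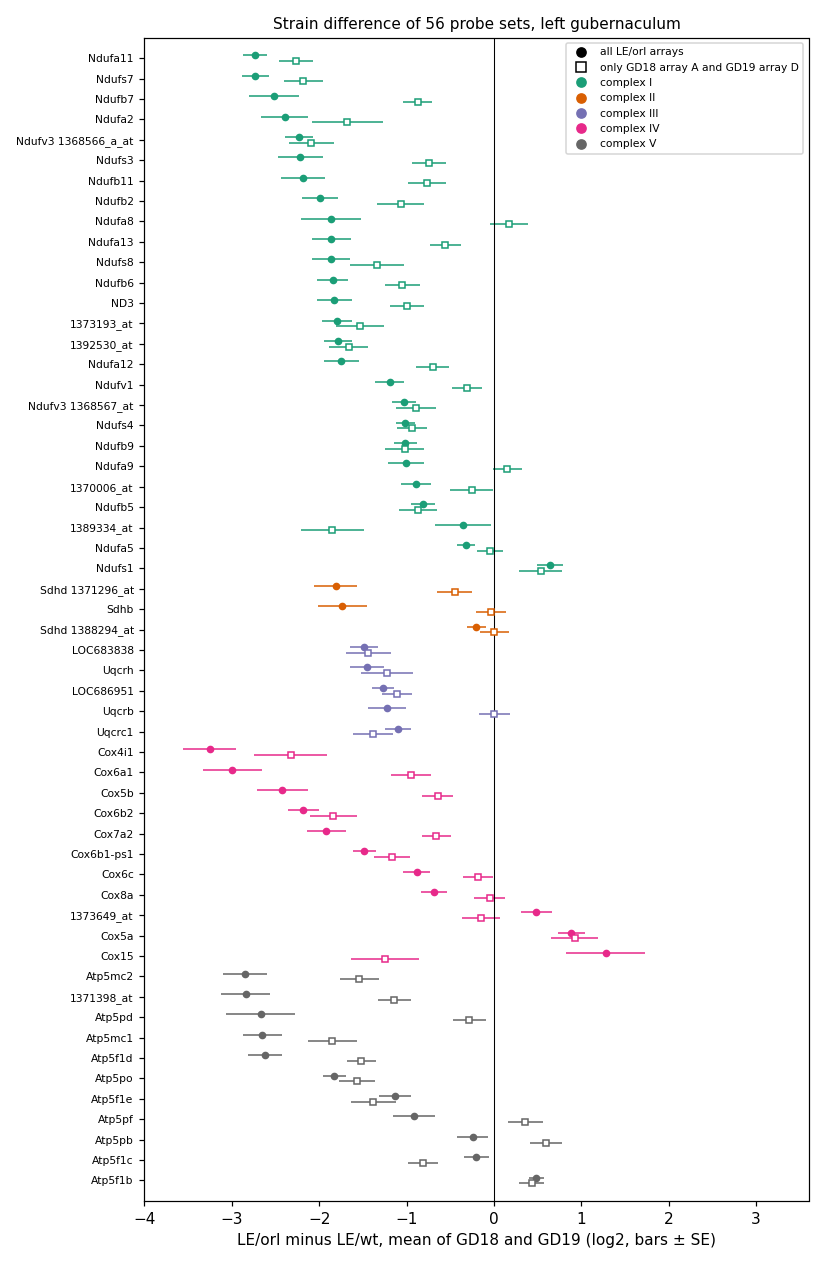
Strain difference of 56 of the 57 probe sets in left gubernaculum, as LE/orl minus LE/wt on the log2 scale with bars of ± SE, over GD18 and GD19. Filled circles use all 8 LE/orl arrays and open squares only LE/orl GD18 array A and GD19 array D. Cox4i1 is lower in both, and Sdhb, Uqcrb and Ndufa8 are near 0 in the 2 arrays.

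The 2 markers of the set show its 2 patterns. Cox4i1 encodes the largest nuclear subunit of cytochrome c oxidase. At GD18 Cox4i1 had log2 levels of 9.25, 6.78, 7.70 and 7.96 in LE/orl arrays A to D, against 10.91, 11.24, 11.54 and 11.18 in LE/wt. At GD19 it had 8.10, 8.62, 7.62 and 8.82 in LE/orl, against 11.81, 10.87, 12.27 and 11.07 in LE/wt. Every LE/orl array lay below every LE/wt array on both days, arrays A of GD18 and D of GD19 included, although these 2 were the highest of their groups. Its strain difference was −3.30 (SE 0.43, adjusted p = 4.62e-07) at GD18 and −3.21 (SE 0.43, adjusted p = 6.7e-07) at GD19. With the 2 arrays alone it was −2.33 (SE 0.42, adjusted p = 0.000105). Cox6c, a small subunit of the same enzyme, had 12.19, 11.07, 11.06 and 11.03 in LE/orl at GD18, against 12.56, 12.50, 12.44 and 12.16 in LE/wt. At GD19 it had 11.45, 11.34, 11.44 and 12.15 in LE/orl, against 12.37, 12.39, 12.17 and 12.24 in LE/wt. Here array A of GD18 lay inside the LE/wt range and array D of GD19 just below it, and only the other 6 LE/orl arrays were clearly lower. The difference of Cox6c was −1.08 (SE 0.21, adjusted p = 0.000122) at GD18 and −0.70 (SE 0.21, adjusted p = 0.00699) at GD19, and it was not called in the 2 arrays alone at −0.18 (SE 0.18, adjusted p = 0.414).

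**Figure D2:**
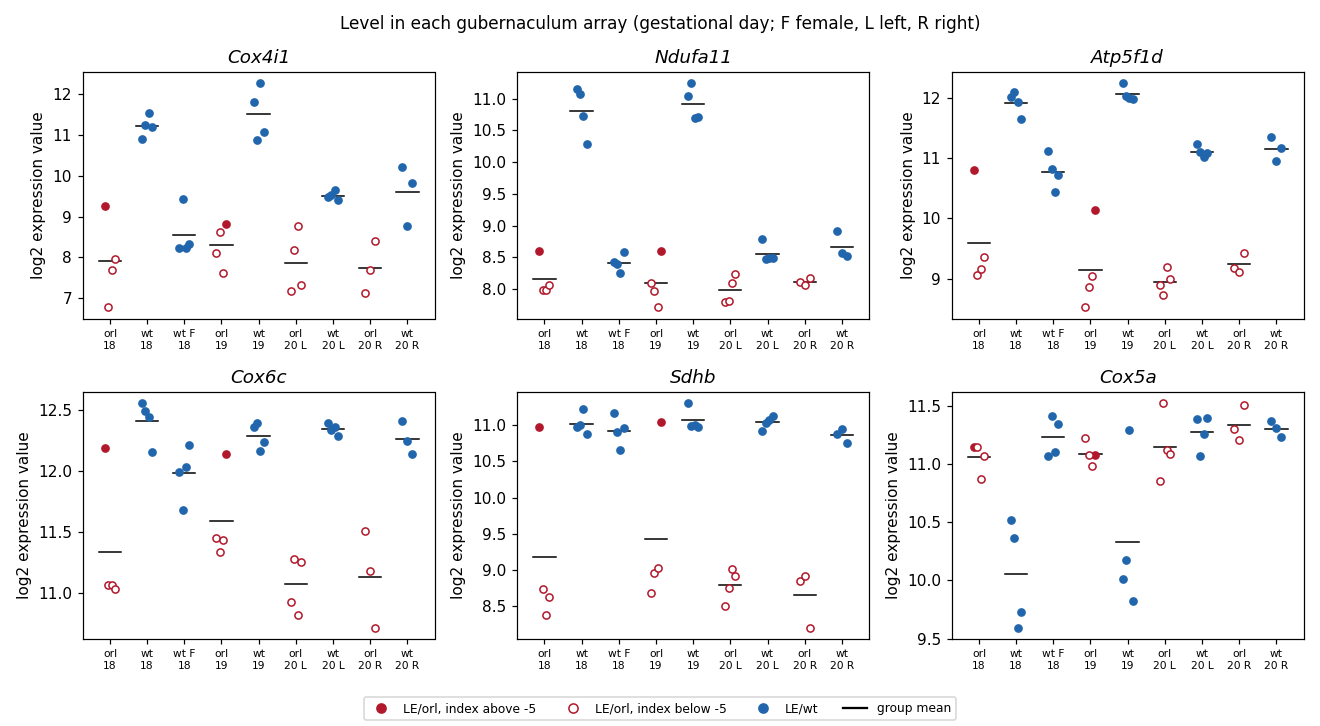
Log2 level of 6 members in each gubernaculum array, with LE/orl in red and LE/wt in blue, open points for LE/orl arrays whose 5′ to 3′ index is below −5, and a line at each group mean. Cox4i1, Ndufa11 and Atp5f1d are lower in every LE/orl array than in LE/wt males at GD18 and GD19, Cox6c and Sdhb are low in the open points, and Cox5a runs the other way.

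In complex I, which oxidises NADH, 24 of 27 probe sets were lower and 2 higher in LE/orl at GD18, while array A alone gave 14 lower and 2 higher there. The 2 arrays over both days had 20 lower and 1 higher. Ndufa11 encodes an accessory subunit of the membrane arm. It had 8.60, 7.99, 7.99 and 8.06 in LE/orl at GD18, against 11.15, 11.07, 10.73 and 10.29 in LE/wt. At GD19 it had 8.10, 7.98, 7.71 and 8.60 in LE/orl, against 11.04, 11.25, 10.70 and 10.71 in LE/wt. All 8 LE/orl arrays were below all 8 LE/wt arrays, and the 2 with the stronger 5′ signal were the highest of their groups at 8.60 each. Its differences were −2.65 (SE 0.19, adjusted p = 3.92e-11) at GD18 and −2.26 (SE 0.19, adjusted p = 1.49e-08) in the 2 arrays alone. Ndufs7, an iron-sulphur subunit of the arm that hands electrons to ubiquinone, gave −2.66 at GD18 and −2.18 in the 2 arrays. Both probe sets of Ndufv3, a small subunit near the NADH site, were called lower in both selections, 1368566_a_at at −2.16 and −2.09 and 1368567_at at −1.41 and −0.89.

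Ndufb6 and Ndufs3 were the complex I members whose highest p over the 3 days was lowest. Ndufb6, an accessory subunit of the membrane arm, had 9.85, 9.00, 8.61 and 8.90 in LE/orl at GD18, against 10.97, 10.81, 10.74 and 10.29 in LE/wt. All 4 LE/orl values were below the LE/wt range, with array A nearest to it. The difference was −1.61 (SE 0.25, adjusted p = 5.55e-06) at GD18 and −1.05 (SE 0.20) in the 2 arrays. Ndufs3, a core subunit of the peripheral arm, had 9.34, 7.26, 7.43 and 7.32 in LE/orl at GD18, against 10.13, 10.18, 10.19 and 9.97 in LE/wt. Array A again lay under LE/wt but far above the other LE/orl arrays, and the difference of −2.28 (SE 0.36) became −0.75 (SE 0.19, adjusted p = 0.00319) in the 2 arrays. Ndufa8 and Ndufa9, further accessory subunits, were lower at GD18 at −1.90 and −1.08, and not called in the 2 arrays at 0.17 and 0.15. ND3, the subunit encoded by mitochondrial DNA, had 12.99, 11.57, 11.55 and 12.32 in LE/orl at GD18, against 13.87, 13.85, 13.53 and 14.02 in LE/wt. It was lower in every LE/orl array, with −1.71 (SE 0.28, adjusted p = 1.47e-05) at GD18 and −0.99 (SE 0.19, adjusted p = 0.000262) in the 2 arrays.

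Ndufs1, a core iron-sulphur subunit of the peripheral arm, went the other way. Ndufs1 had 10.76, 10.33, 10.66 and 10.65 in LE/orl at GD18, against 9.36, 9.60, 9.82 and 9.97 in LE/wt. All 4 LE/orl arrays were above LE/wt, and the difference was 0.91 (SE 0.21, adjusted p = 0.000847). At GD19 it was not called at 0.37 (adjusted p = 0.15). In the 2 arrays it was not called either, at 0.53 (SE 0.24, adjusted p = 0.0777), and array A at GD18 gave 1.07 (adjusted p = 0.0285) and array D at GD19 gave −0.01 (adjusted p = 0.988).

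In complex II, succinate dehydrogenase, the values of Sdhb and Sdhd 1371296_at depended strongly on the arrays. So did those of Ndufa8, Uqcrb and Atp5pd in other complexes. Sdhb, the iron-sulphur subunit, had 10.97, 8.74, 8.39 and 8.63 in LE/orl at GD18, against 10.98, 11.00, 11.23 and 10.88 in LE/wt. At GD19 it had 8.68, 8.96, 9.03 and 11.05 in LE/orl, against 11.30, 10.99, 11.00 and 10.97 in LE/wt. Array A of GD18 and array D of GD19 were at the LE/wt level, and the 6 arrays with the weak 5′ signal were well below it. The strain difference of Sdhb was −1.84 (SE 0.40, adjusted p = 0.000334) at GD18 and −0.03 (SE 0.17, adjusted p = 0.9) in the 2 arrays. Sdhd, a membrane anchor of the complex, has 2 probe sets that did not behave alike. Probe set 1371296_at had 8.48, 6.24, 6.18 and 6.67 in LE/orl at GD18, against 8.82, 8.77, 8.55 and 8.35 in LE/wt, a difference of −1.73 (SE 0.34, adjusted p = 0.000142). Array A lay within LE/wt and the other LE/orl arrays well below. Probe set 1388294_at had 10.17, 9.82, 9.59 and 9.94 in LE/orl, against 10.07, 9.89, 10.13 and 10.24 in LE/wt, and was not called at −0.21 (SE 0.15, adjusted p = 0.258). Over both days none of the 3 complex II probe sets was called in the 2 arrays, with 1 at an unadjusted p under 0.05 in limma. By day, array A at GD18 called none, with 0 at an unadjusted p under 0.05, and array D at GD19 called Sdhd 1371296_at lower at −0.76 (SE 0.29, adjusted p = 0.0438).

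In complex III, ubiquinol-cytochrome c reductase, all 5 probe sets were lower in LE/orl at GD18 and 3 there with array A alone, while the 2 arrays over both days had 4 lower. LOC686951, listed as similar to a reductase subunit, had 10.78, 10.47, 10.04 and 10.47 in LE/orl at GD18, against 11.51, 11.69, 11.67 and 11.29 in LE/wt. The GD19 levels were 10.44, 10.45, 9.65 and 10.16 in LE/orl, against 11.70, 11.66, 11.69 and 11.41 in LE/wt. No LE/orl array reached LE/wt, and array A of GD18 was the nearest. The differences were −1.10 (SE 0.18, adjusted p = 1.28e-05) at GD18 and −1.11 (SE 0.17) in the 2 arrays over both days. By day LOC686951 was at −0.76 with array A at GD18 and −1.45 with array D at GD19. Uqcrb, the ubiquinone-binding subunit, was the exception, with 12.47, 10.89, 10.79 and 10.80 in LE/orl at GD18, against 12.47, 12.29, 12.70 and 12.64 in LE/wt. Array A was within LE/wt and the other 3 were well under it, so the difference of −1.28 (SE 0.31) became 0.01 (SE 0.18, adjusted p = 0.984). LOC683838, Uqcrh and the core protein Uqcrc1 were lower in both selections, at −1.48, −1.31 and −0.93 at GD18 and −1.44, −1.23 and −1.38 in the 2 arrays. By day Uqcrc1 was at −0.95 with array A at GD18 and −1.82 with array D at GD19. Uqcrh was not called with array A alone at GD18, at −0.75 (adjusted p = 0.213), and was lower with array D at GD19, at −1.70 (adjusted p = 0.00374).

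In complex IV, cytochrome c oxidase, 8 of 11 probe sets were lower and 2 higher at GD18, while array A alone gave 4 lower and 1 higher there. The 2 arrays over both days had 7 lower and 1 higher. Cox7a2 and Cox5b are nuclear subunits of the enzyme. Cox7a2 had 12.77, 10.78, 10.77 and 10.54 in LE/orl at GD18, against 13.20, 12.98, 12.93 and 12.75 in LE/wt, and −1.75 (SE 0.31) as its difference. Cox5b had 11.54, 9.12, 9.08 and 9.09 in LE/orl at GD18, against 12.38, 12.04, 12.14 and 11.96 in LE/wt, and −2.42 (SE 0.41). In both genes array A was far above the other LE/orl arrays, inside the LE/wt range for Cox7a2 and below it for Cox5b. With array A alone at GD18 neither was called, Cox7a2 at −0.20 (adjusted p = 0.596) and Cox5b at −0.58 (adjusted p = 0.0996). With array D at GD19 both were lower, at −1.12 and −0.70, and over both days the 2 arrays gave −0.66 (SE 0.17) and −0.64 (SE 0.18). Cox6b2, listed as the testis-specific isoform of a subunit, was lower by either selection, at −2.50 (SE 0.24) and −1.84 (SE 0.27).

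Cox5a, a matrix-side subunit, was higher in LE/orl. It had 11.15, 11.15, 10.88 and 11.07 in LE/orl at GD18, against 10.52, 10.37, 9.60 and 9.73 in LE/wt, with no overlap. Its difference was 1.01 (SE 0.22, adjusted p = 0.000441) at GD18 and 0.92 (SE 0.27, adjusted p = 0.00758) in the 2 arrays, although array D at GD19 alone did not call it, at 0.75 (adjusted p = 0.129). The direction of Cox15, which makes the haem A of the enzyme, depended on the arrays. At GD18 Cox15 had 7.02, 10.41, 10.12 and 9.65 in LE/orl, against 7.09, 7.86, 7.52 and 7.35 in LE/wt. At GD19 it had 9.65, 9.63, 9.03 and 5.74 in LE/orl, against 7.69, 7.72, 8.20 and 7.59 in LE/wt. The 6 arrays with the weak 5′ signal were above all LE/wt arrays and arrays A of GD18 and D of GD19 below them. The difference was 1.84 (SE 0.64, adjusted p = 0.0166) with all arrays at GD18 and −1.25 (SE 0.39, adjusted p = 0.0112) in the 2 arrays. With array A alone at GD18 it was not called, at −0.44 (adjusted p = 0.612).

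In complex V, ATP synthase, 8 of 11 probe sets were lower and 1 higher at GD18, while array A alone gave 7 lower and 0 higher there. The 2 arrays over both days had 7 lower and 2 higher. Atp5f1d encodes the delta subunit of the central stalk. It had 10.81, 9.06, 9.15 and 9.35 in LE/orl at GD18, against 12.02, 12.08, 11.92 and 11.64 in LE/wt. The GD19 levels were 8.52, 8.87, 9.04 and 10.13 in LE/orl, against 12.24, 12.03, 11.99 and 11.98 in LE/wt. Every LE/orl array was below every LE/wt array of its day, arrays A and D least so. Its differences were −2.32 (SE 0.28, adjusted p = 1.42e-07) at GD18, −2.92 (SE 0.28) at GD19 and −1.52 (SE 0.16, adjusted p = 2.98e-07) in the 2 arrays. Probe set 1371398_at, listed as similar to subunit f of the membrane part, had 11.23, 8.76, 8.93 and 8.80 in LE/orl at GD18, against 12.27, 12.35, 12.22 and 11.81 in LE/wt. All LE/orl arrays were below LE/wt, array A least so, and the difference was −2.73 (SE 0.40) at GD18 and −1.14 (SE 0.19) in the 2 arrays.

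Atp5mc1 and Atp5mc2, which encode the identical subunit c of the rotor ring, were lower at GD18 at −2.87 and −2.92 and in the 2 arrays at −1.85 and −1.54. Atp5po, whose promoter is printed above, gave −1.60 and −1.57, with −1.14 for array A at GD18 and −1.99 for array D at GD19. Atp5pd and Atp5pf, subunits of the peripheral stalk, were lower at GD18 at −2.74 and −1.05 and not called in the 2 arrays at −0.28 and 0.36. Atp5f1b, the catalytic beta subunit, had 13.43, 13.52, 13.54 and 13.46 in LE/orl at GD18, against 12.83, 12.88, 13.07 and 13.04 in LE/wt. It was higher in every LE/orl array, by 0.53 (SE 0.12, adjusted p = 0.000511) at GD18 and 0.43 (SE 0.14, adjusted p = 0.0148) in the 2 arrays. Neither array called it on its own day, with 0.48 for array A and 0.39 for array D.

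The mean log2 level over the probe sets of a complex gives the same order of arrays. The complex I mean was 9.27 in LE/orl GD18 array A and 9.20 in LE/orl GD19 array D, against 9.94 to 10.20 in LE/wt at GD18 and 10.06 to 10.23 at GD19. The other LE/orl arrays of these days lay lower, down to 8.33 at GD18 and 8.29 at GD19. The complex II mean of array A, 9.87, was inside the LE/wt range of 9.83 to 9.97, and that of array D, 9.76, was below the 9.92 to 10.16 of LE/wt at GD19. For complex III all LE/orl arrays of GD18 were between 10.06 and 10.82, against 11.45 to 11.71 in LE/wt.

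**Figure D3:**
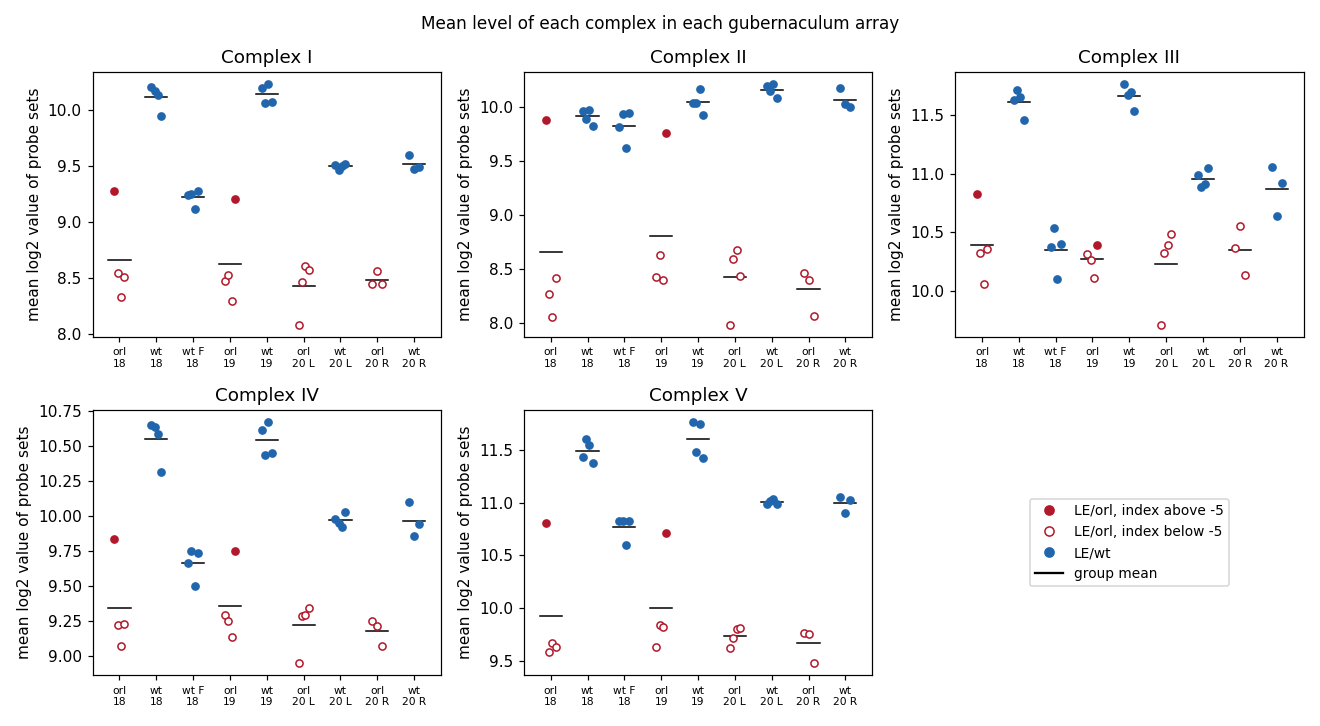
Mean log2 value of the probe sets of each complex in each gubernaculum array, with LE/orl in red and LE/wt in blue, open points for LE/orl arrays whose 5′ to 3′ index is below −5, and a line at each group mean. LE/wt males at GD18 and GD19 are highest for complexes I, III, IV and V, with LE/wt females and LE/wt GD20 lower, while complex II is level across the LE/wt groups and low in the open points.

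At GD20, 39 probe sets were lower and 2 higher in left LE/orl gubernaculum (26.9% and 20.1% of all), with a median of −1.01, while right gubernaculum had 35 lower and 3 higher (20.3% and 18.1% of all) and a median of −0.93. Here no LE/orl array had the stronger 5′ signal, and with the index in the model 0 of the 57 were called on either side, when 46 of all 8872 probe sets (0.518%) were called on the left and 41 (0.462%) on the right. Few calls of any kind were thus left in that model. Sdhb had 8.51, 8.76, 9.02 and 8.93 in left LE/orl gubernaculum, against 10.92, 11.04, 11.07 and 11.13 in LE/wt. The groups did not overlap, and the difference was −2.24 (SE 0.40, adjusted p = 7.42e-05). Cox4i1 had 7.17, 8.18, 8.77 and 7.32 in left LE/orl gubernaculum, against 9.48, 9.52, 9.64 and 9.41 in LE/wt, and differed by −1.66 (SE 0.43, adjusted p = 0.0024). Ndufa11 had 7.79, 7.81, 8.10 and 8.24 in LE/orl, against 8.79, 8.47, 8.48 and 8.49 in LE/wt. Neither gene overlapped between the strains. Between GD19 and GD20 both genes were called lower in LE/wt and were not called in LE/orl.

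By a limma F test over the changes from GD18 to GD19 and from GD18 to GD20, the strain difference changed for 19 probe sets. By the sign of the change from GD18 to GD20, 14 were upward and 5 downward (10.3% and 16.4% of all). This count fell to 12 without replicate B and 9 without replicate C of every group. Among the lowest p-values of the F test were those of Ndufa11 (adjusted p = 1.04e-06) and Ndufv3 1368566_a_at (adjusted p = 0.00013). Their differences at GD20 minus those at GD18 were 2.08 (SE 0.27) and 1.70 (SE 0.33).

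Male and female LE/wt gubernacula at GD18 address the sexual dimorphism of the organ, which develops in males and regresses to a ligament in females. No LE/orl array enters, and the 5′ to 3′ index was −4.23 to −3.73 in males and −4.73 to −3.93 in females. Of the 57 probe sets, 31 were higher and 4 lower in males (23.6% and 29.5% of all), with a median difference of 0.98, male minus female. By complex, 16 of 27 were higher in complex I, 4 of 5 in complex III, 4 of 11 in complex IV and 7 of 11 in complex V, and 0 of 3 in complex II, where none reached an unadjusted p under 0.05 in limma. Ndufs1, Cox5a and Atp5f1b were among the 4 lower in males. The authors' gubernaculum and LE/wt lists both give means for these males and females, so the counts are not independent of how the members were selected. Ndufs1 and Cox5a came from the LE/wt list alone, and their sex differences are a description of how they were chosen.

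Cox4i1 had 10.91, 11.24, 11.54 and 11.18 in males, against 8.23, 9.43, 8.22 and 8.32 in females. The sexes did not overlap even though female array B was well above the other 3, and the difference was 2.67 (SE 0.43, adjusted p = 7.05e-06). Ndufa11 had 11.15, 11.07, 10.73 and 10.29 in males, against 8.42, 8.39, 8.25 and 8.59 in females, and differed by 2.40 (SE 0.19, adjusted p = 9.74e-11). ND3 had 13.87, 13.85, 13.53 and 14.02 in males, against 11.91, 11.43, 11.21 and 11.79 in females, and differed by 2.23 (SE 0.28, adjusted p = 2.09e-07). These 3 had the largest differences upward among the 57, and none overlapped between the sexes. Cox5a had 10.52, 10.37, 9.60 and 9.73 in males, against 11.07, 11.42, 11.11 and 11.35 in females, a difference of −1.18 (SE 0.22, adjusted p = 6.06e-05). The sexes did not overlap for Cox5a, and Atp5f1b was lower in males, at −0.75 (SE 0.12). Cox6c and Sdhb were not called, at 0.43 (SE 0.21) and 0.10 (SE 0.40).

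With time in LE/wt males, no probe set of the 57 was called between GD19 and GD18, when 0.237% of all were, and 1 had an unadjusted p under 0.05 in limma. From GD19 on the levels changed: at GD20, 25 were lower and 6 higher than at GD19 (18.0% and 21.7% of all), with a median of −0.60. The GD19 males are among the groups of the authors' lists, so these counts are not independent of how the members were selected. Ndufa11 had 8.79, 8.47, 8.48 and 8.49 at GD20, against 11.04, 11.25, 10.70 and 10.71 at GD19, and fell by 2.37 on the log2 scale (SE 0.19, adjusted p = 6.64e-10). Cox4i1 had 9.48, 9.52, 9.64 and 9.41 at GD20, against 11.81, 10.87, 12.27 and 11.07 at GD19, and fell by 1.99 (SE 0.43, adjusted p = 0.000488). Neither gene overlapped between the days. Ndufv3 1368566_a_at had 6.20, 6.15, 6.27 and 6.35 at GD20, against 8.33, 8.07, 8.25 and 8.08 at GD19, and fell by 1.94 (SE 0.23, adjusted p = 2.56e-07). Among those higher at GD20 were Ndufs1 at 1.02 (SE 0.21) and Cox5a at 0.95 (SE 0.22), the last with overlapping groups. Complex II again held none that fell, and Sdhd 1388294_at rose by 0.65 (SE 0.15).

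**Figure D4:**
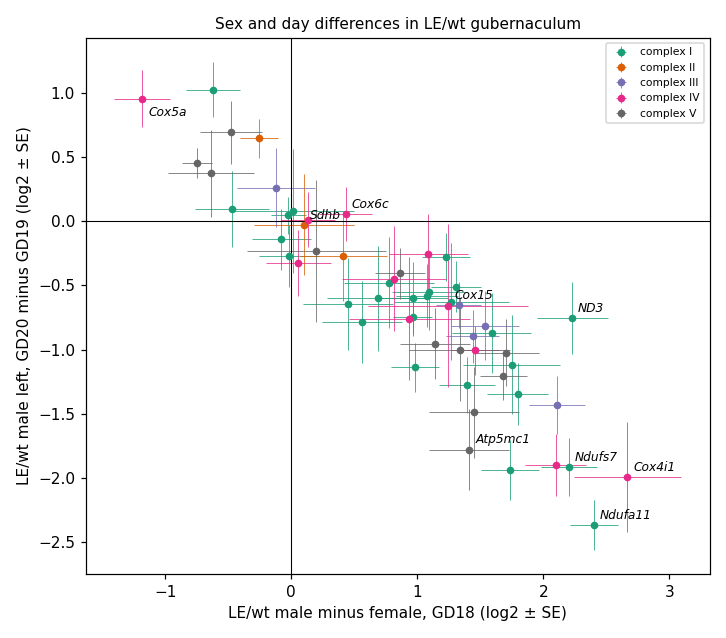
Difference between LE/wt males and females at GD18 (x axis) and between GD20 and GD19 in left LE/wt male gubernaculum (y axis) for 56 of the 57 probe sets, on the log2 scale with bars of ± SE, coloured by complex. The members higher in males lie low on the y axis, with Cox4i1 at 2.67 and −1.99 and Ndufa11 at 2.40 and −2.37, and Cox5a is at the opposite corner.

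The sex and day comparisons share no array, and their calls are set side by side here. Of the 31 higher in males, 24 (77.4%) were among the 25 lower at GD20 than at GD19 (96.0% of those), and all 4 lower in males were among the 6 higher at GD20. Over all 8872 probe sets, 1193 of the 2097 higher in males (56.9%) were among the 1601 lower at GD20 (74.5% of those). The Pearson r of the differences was −0.91 across the 57 and −0.75 across all, a description over probe sets that share the arrays and their normalisation. The lists that gave the 57 were selected for differences among groups used here. Larger shares and r than over all probe sets were thus favoured in advance. Of the 37 members lower in LE/orl GD19 array D against LE/wt GD19, 30 (81.1%) were among the 31 higher in males at GD18 (96.8% of those), with r = −0.92 across members. Over all probe sets the shares were 75.8% and 55.6%, with r = −0.80. Of the 28 lower in LE/orl GD18 array A against LE/wt GD18, 21 (75.0%) were among the 25 lower at GD20 in LE/wt (84.0% of those), with r = 0.94. Over all probe sets the shares were 81.4% and 42.1%, with r = 0.80. Such overlaps were thus found over all probe sets too. With all LE/orl arrays r was −0.64 at GD19 and 0.65 at GD18 across members, and −0.60 and 0.57 across all probe sets.

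In LE/orl males, no probe set was called at GD19 against GD18 (0.101% of all) or at GD20 against GD19 (0.0789% of all), with 1 and 4 at an unadjusted p under 0.05 in limma. The medians were −0.004 and −0.18. With the authors' exclusions the counts were also 0 and 0, when 3 and 6 of all 8872 probe sets were called. An unadjusted p under 0.05 in limma was then reached by 5 and 2 of the 57. Left against right at GD20 gave 0 called in LE/orl and 0 in LE/wt, as for 0 of all 8872 probe sets, with 1 and 0 at an unadjusted p under 0.05. This fit took the sides as separate groups and did not pair those of 1 fetus. Left minus right differences among the 57 ran from −0.53 to 0.52 in LE/orl and from −0.13 to 0.22 in LE/wt.

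Genes that serve the same organelle were counted from lists of other mitochondrial and glycolytic genes, named through the same deposited lists. Because the authors selected those for differences on these arrays, calls were favoured in advance, and these counts are not independent evidence. Of all probe sets, 24.1% were lower and 27.2% higher in LE/orl at GD18, and 21.5% and 24.1% in the 2 arrays. In males 23.6% were higher and 29.5% lower, and in LE/wt 18.0% were lower and 21.7% higher at GD20 than at GD19. Of 46 genes of mitochondrial gene expression and biogenesis, mostly ribosomal proteins of the mitochondrion, 38 were lower and 3 higher in LE/orl at GD18, and 23 and 4 in the 2 arrays alone. The same list had 23 higher and 5 lower in males, and 18 lower and 4 higher at GD20 than at GD19 in LE/wt. Mrpl52, Mrps24 and Mrpl34, mitochondrial ribosomal proteins, differed by −1.48 (SE 0.13), −2.01 (SE 0.21) and −2.48 (SE 0.22) between the strains at GD18 and by −1.65, −1.93 and −1.68 in the 2 arrays. Mrpl52 was higher in males by 1.60, Mrps24 by 2.12 and Mrpl34 by 2.10.

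Genes that feed the chain moved in both directions. Of 12 genes of the tricarboxylic acid cycle and pyruvate dehydrogenase, 6 were lower and 4 higher in LE/orl at GD18, and 3 and 4 in the 2 arrays. Idh3g, a subunit of isocitrate dehydrogenase, was at −2.14 (SE 0.25) and Mdh2, mitochondrial malate dehydrogenase, at −1.25 (SE 0.23), while Dlst, a subunit of the oxoglutarate dehydrogenase complex, was higher by 2.02 (SE 0.19). The 2 arrays gave −1.33, −1.83 and 2.16, each called. In males against females Dlst was at −2.67 and Mdh2 at 1.69. The 9 carriers and electron transfer genes split into 6 lower and 3 higher at GD18, with 1 and 2 in the 2 arrays. Cycs, cytochrome c itself, was at −2.18 (SE 0.45) at GD18 and was not called in the 2 arrays at −0.36 (adjusted p = 0.119), and Cox6a2, the muscle isoform kept out of the set, was at −2.18 (SE 0.35) and −2.27. The phosphate carrier Slc25a3 was higher, at 1.01 (SE 0.20) and 1.34. Among 10 tested glycolytic genes, LE/orl had 5 lower and 1 higher at GD18, against 2 and 1 in the 2 arrays, with the lactate dehydrogenase subunit Ldha higher by 1.10 (SE 0.20) and the enzymes Eno1 and Aldoa at −1.43 and −1.40. These 3 were called in the 2 arrays as well, at 1.00, −0.80 and −0.61.

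Markers of the cell types in the tissue moved as well. They too were named through the deposited lists, so their counts are not independent evidence. The shares over all probe sets are those given above. Of the 12 striated muscle markers, 8 were lower and 1 higher in LE/orl at GD18, and 5 and 0 in the 2 arrays. Their summed log2 level was 15.34 to 15.38 in LE/orl at GD18, against 15.47 to 15.93 in LE/wt males and 14.69 to 16.00 in LE/wt females. On the later days the sums overlapped between the strains. They were 15.70 to 16.18 in LE/orl at GD19, against 15.93 to 16.40 in LE/wt. In left gubernaculum at GD20 they were 15.99 to 16.60 in LE/orl, against 16.29 to 16.66 in LE/wt. Sln and Myl3, a calcium pump regulator and a myosin light chain, were lower in LE/orl at GD18, at −2.65 and −2.05, and in the 2 arrays, at −2.42 and −1.91. The 5 mesenchyme markers summed to 15.61 to 15.82 in LE/orl at GD18, against 14.98 to 15.27 in LE/wt males, and to 15.42 to 15.54 in females. Single markers also differed at GD18, with Lyve1 of lymphatic vessels higher in LE/orl, and Cdh5 of endothelium and C1qc of macrophages lower, the median over LE/orl arrays being 9.20, 5.68 and 2.72, against 6.64, 6.92 and 7.01 in LE/wt. In the 2 arrays these differences were 1.66, −1.96 and −2.59. The C1qc mean lay under the minimum of 5 in LE/orl at GD18 and GD19, so its difference is to a level near background.

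Red cell and smooth muscle markers were higher in the 2 arrays than in the other LE/orl arrays of their day. For red cells, the 2 genes summed to 13.64 in LE/orl GD18 array A and 11.18 to 11.45 in the other 3, against 13.29 to 14.62 in LE/wt males. At GD19 they summed to 13.38 in LE/orl array D and 9.20 to 10.02 in the other 3, against 11.38 to 14.01 in LE/wt. Neither of the 2 genes was called in the 2 arrays, and 1 was lower with all LE/orl arrays at GD18. The 2 smooth muscle markers summed to 10.91 in LE/orl GD18 array A and 8.29 to 8.48 in the other 3, against 10.22 to 11.62 in LE/wt males, with 2 of 2 lower with all arrays and 1 in the 2 arrays. At GD19 they summed to 10.63 in LE/orl array D and 8.52 to 8.85 in the other 3, against 9.96 to 11.78 in LE/wt.

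In LE/wt the markers also differed between GD20 and GD19, the days between which 25 of the 57 probe sets fell. The striated muscle sum was 16.29 to 16.66 at GD20, against 15.93 to 16.40 at GD19, with 4 of the 12 higher and 0 lower. The red cell sum was 8.08 to 11.63 at GD20, against 11.38 to 14.01 at GD19, with 2 of 2 lower and a median difference of −3.16. C1qc was lower, at −3.44, and Cdh5 at −2.06, and the GD20 mean of each lay under the minimum of 5. Of the smooth muscle markers 1 of 2 was lower, and 3 of 5 mesenchyme markers were higher. The mesenchyme sum was 15.80 to 15.89 at GD20, against 15.23 to 15.57 at GD19. The part of these markers in the differences of the 57 probe sets was not tested.

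In testis the strain differences were small. At GD17, 4 of the 57 probe sets were higher and 1 lower in LE/orl (7.24% and 11.2% of all 8013 tested), with a median of 0.05, and at GD19 0 were higher and 8 lower (5.24% and 8.1% of all), with a median of −0.11. The GD17 count of 5 was 1 without replicate A of each group, 3 without C and 1 without D. The GD19 count of 8 was 3 without replicate A, 4 without B, 3 without C, 2 without D and 3 without E. Cox5b had 10.49, 10.26, 10.32, 10.44 and 10.20 in LE/orl at GD17, against 10.09, 10.05, 10.03, 10.08 and 10.13 in LE/wt. The groups did not overlap, and the difference was 0.26 (SE 0.07, adjusted p = 0.011). Cox7a2 was higher by 0.21 (SE 0.06) and Ndufv3 1368566_a_at by 0.28 (SE 0.08). The 1 lower member was 1389334_at, which carries the symbol of Ndufa10 beside 2 others, with 7.56, 7.59, 7.54, 7.66 and 7.25 in LE/orl at GD17, against 8.06, 7.73, 7.83, 8.22 and 8.30 in LE/wt, and 6.91, 7.04, 6.73, 7.00 and 6.93 in LE/orl at GD19, against 7.90, 7.71, 7.88, 7.60 and 8.01 in LE/wt. It was lower in every LE/orl array on both days, with −0.51 (SE 0.11) at GD17 and −0.90 (SE 0.11) at GD19. Because it came from the testis list, these 2 differences are a description of how it was chosen.

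At GD19 Ndufs3 had 9.36, 9.37, 9.36, 9.16 and 9.13 in LE/orl testis, against 9.61, 9.46, 9.58, 9.41 and 9.73 in LE/wt, and differed by −0.28 (SE 0.08, adjusted p = 0.0257), without overlap. Cox4i1 showed no called strain difference in testis, at 0.02 (SE 0.07) and 0.07 (SE 0.07).

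Over time, 28 probe sets were lower and 3 higher at GD19 than at GD17 in LE/orl testis (30.2% and 25.3% of all), with a median of −0.19, and 9 lower and 8 higher in LE/wt testis (22.7% and 18.9% of all), with a median of −0.03. The LE/wt count of 17 was 10 without replicate A, 10 without C and 11 without D. In LE/orl, Ndufs1 was at −0.55 (SE 0.08), with ND3 at 0.50 (SE 0.13), Cox6b2 at 0.37 (SE 0.10) and Cox4i1 at 0.21 (SE 0.07) higher. In LE/wt, Cox5a was at −0.45 (SE 0.10), Cox15 at −0.35 (SE 0.12) and Ndufs1 at −0.34 (SE 0.08), with Ndufv3 1368566_a_at at 0.36 (SE 0.08), Cox6b2 at 0.35 (SE 0.10) and Cox8a at 0.31 (SE 0.09) higher.

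The strain difference in testis changed between the days for 9 probe sets, all downward from GD17 to GD19 (4.7% of all downward and 4.94% upward). This count was 2 without replicate A, 3 without C and 0 without D. The lowest p-values were those of Ndufs3 at −0.52 (SE 0.12, adjusted p = 0.00938), Cox5b at −0.41 (SE 0.10, adjusted p = 0.0131) and Ndufb2 at −0.39 (SE 0.10, adjusted p = 0.0152). Beside these, the 5 mesenchyme markers summed to 12.49 to 12.79 in LE/orl testis at GD17, against 12.97 to 13.31 in LE/wt, with 5 of 5 lower, and to 13.57 to 13.72 in LE/orl at GD19, against 13.62 to 13.78 in LE/wt, with 1 of 5 lower. All 5 were higher at GD19 than at GD17 in both strains. The 2 red cell markers summed to 13.52 to 14.03 in LE/orl testis at GD17, against 13.36 to 13.72 in LE/wt, with 1 of 2 higher, and to 10.79 to 12.05 in LE/orl at GD19, against 11.21 to 11.78 in LE/wt. Between the days 2 of 2 were lower at GD19 in LE/orl (median −3.38) and 1 of 2 in LE/wt (median −1.52), and the strain difference of 1 changed downward. Both smooth muscle markers were higher at GD19 in each strain, their sum being 10.18 to 10.40 at GD19, against 8.28 to 8.93 at GD17 in LE/orl, and 10.45 to 10.63 at GD19, against 8.96 to 9.53 at GD17 in LE/wt. The summed striated muscle markers were 12.08 in LE/wt GD19 testis array D and 9.17 in LE/orl GD17 testis array D, against 7.10 to 7.61 in the other 18 testis arrays. What these markers contribute to the testis values was not tested.

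**Figure D5:**
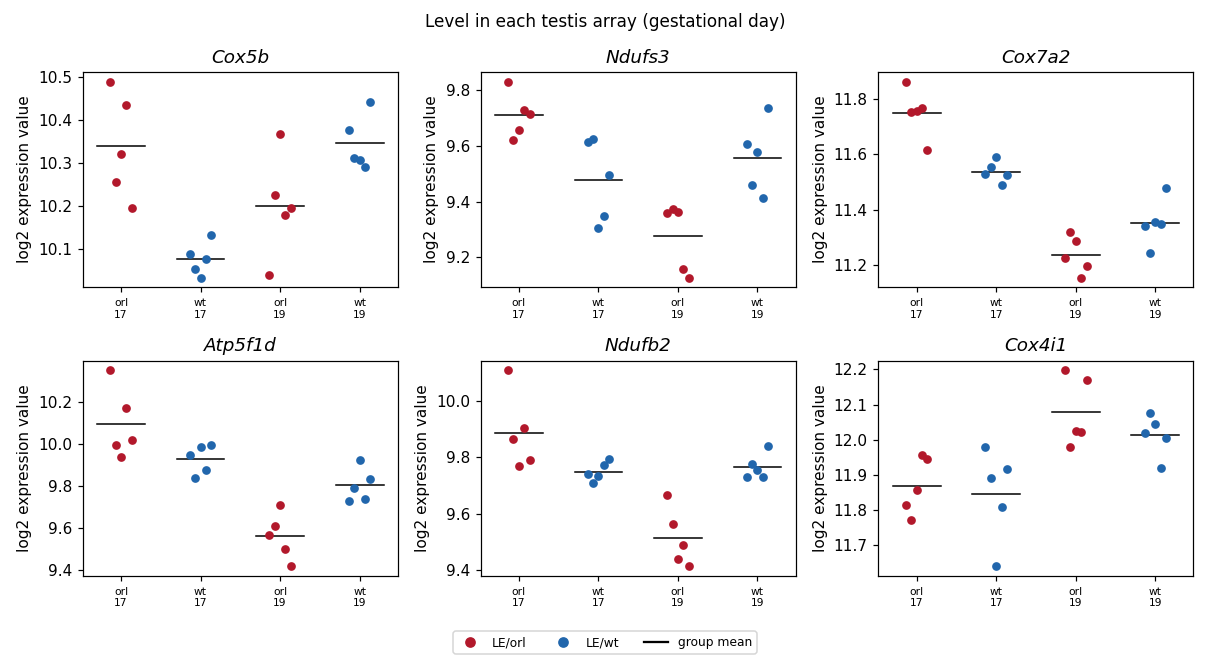
Log2 level of 6 members in each testis array, with LE/orl in red, LE/wt in blue and a line at each group mean. Cox5b lies higher in LE/orl at GD17, Ndufs3, Ndufb2 and Atp5f1d lower in LE/orl at GD19, and the strains overlap for Cox4i1 on both days.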

How the data were processed

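Single fetal organs were hybridised to 54 one-colour Affymetrix rat arrays. Per the submitters' processing notes and the deposited methods text, the authors computed GCRMA values, deposited as log2 values per probe set. Which arrays shared a GCRMA run was not given in the sources. The authors' 3 lists give linear mean intensity per group, deposited with NetAffx titles, and were chosen with limma and an analysis of variance. Their means for LE/orl GD18 and GD19 matched the arrays within rounding (0.51) in 54 of 54 members only when GD18 array A and GD19 array D were left out. Members and gene lists were chosen with earlier results of these data known.

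From the log2 values, 57 control probe sets were left out, and a minimum log2 value of 5, reached in 3 or more gubernaculum or 5 or more testis arrays, left 8872 and 8013 probe sets. For the main fit no values were normalised again. For each tissue all groups were fitted in 1 linear model with limma 3.58.1 in R 4.3.3 (lmFit and eBayes), with Benjamini-Hochberg adjustment within each contrast over all probe sets tested, and a probe set was called at an adjusted p under 0.05. The adjusted p-values in the text come from this fit unless another selection of arrays is named. For the change of the gubernaculum strain difference they are of an F test over the changes from GD18 to GD19 and to GD20. The fit was tested on simulated data. Tables were handled with pandas 2.3.3 in Python 3.11.15. The number of arrays per group limits the precision.

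Named in full were Cox4i1, Cox6c, in each complex the 2 probe sets whose highest p over the strain contrasts of GD18, GD19 and GD20 left was lowest, and the 1 with the highest strain fold change at GD18 if called; in other contrasts, up to 3 called members per direction by size, and in changes with day the 3 lowest p-values. Other members named in the text were chosen after their values were seen. The results of 1 member are not reported here, although counts and medians over the 57 include it. Of 51 probe sets with 1 symbol, 35 symbols were current in RefSeq's GRCr8 table, 13 were updated through a synonym and 3 are as listed. Replicates are separate fetuses. Left and right gubernacula of GD20 with the same letter come from 1 fetus by the labels (correlation of deviations −0.35 to 0.55), while letters in other groups pair nothing (−0.65 to 0.53). Alternatives were another minimum signal, quantile normalisation of the deposited values, a covariate for the index of 5′ signal, the authors' exclusions, each replicate left out and the replicate block.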

Additional observations from a re-analysis of the deposited data

Results flagged for a closer look

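Among 165 groups of the 15 members printed in full, 23 had 1 array set far from the others by Dixon's criterion, which chance gives in about 1 group in 20. LE/orl GD18 array A was such an array for Cox6c (12.19), Ndufs3 (9.34), Sdhb (10.97), Uqcrb (12.47), Cox7a2 (12.77), Cox5b (11.54), Atp5f1d (10.81) and 1371398_at (11.23), on the log2 scale and always above its group. LE/orl GD19 array D was such an array for Cox6c (12.15) and Sdhb (11.05), above its group, and for Cox15 (5.74), below it. These are the 2 LE/orl arrays with the stronger 5′ signal. In left LE/orl gubernaculum at GD20, array A was low for Ndufs3 (6.75) and Ndufs1 (10.14).

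In LE/wt gubernaculum, female array B was high for Cox4i1 (9.43) and female array C low for LOC686951 (9.89), and at GD19 array A was high for Sdhb (11.30) and array D low for LOC686951 (11.42). In LE/orl testis at GD17, array D was high for Ndufb6 (9.89) and Ndufs1 (9.79) and array A for LOC686951 (10.32). In LE/orl testis at GD19, array E was low for Sdhb (10.78) and high for Atp5f1b (11.82), and in LE/wt testis at GD19 array E was low for Sdhd 1371296_at (7.81).

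A change of the strain difference over the days was called in gubernaculum for Ndufa11 (2.08 at GD20 minus GD18) and Ndufv3 1368566_a_at (1.70). At GD20 strain and 5′ signal cannot be told apart. In testis, at GD19 minus GD17, a tested change of the strain difference was found for Ndufs3 (−0.52), Cox5b (−0.41) and Ndufb2 (−0.39).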

How the results depend on the processing

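When the index of 5′ signal entered the model, the members called between the strains at GD20 numbered 0 on the left and 0 on the right, when 0.518% and 0.462% of all probe sets were called. At GD18, array A alone, an alternative chosen after seeing the data, called 31. Leaving out 1 replicate letter at a time gave 0 to 1 calls for LE/orl GD20 against GD19, 0 to 1 for LE/wt GD19 against GD18, 9 to 22 for strain differences that changed from GD18 to GD20, 1 to 5 for the testis strain difference at GD17, 2 to 4 at GD19, 10 to 14 for LE/wt testis GD19 against GD17 and 0 to 7 for the change of the testis strain difference. The replicate block moved no count of calls by over 1.5 times, with 52 at GD18 between the strains, 35 between the sexes, 29 for LE/wt GD20 against GD19, 5 for testis GD17 and 8 for testis GD19. Of 803 single values, 726 kept their direction and side of the threshold, 65 were no longer past it, 3 were newly past it and 9 took the opposite direction. These 9 were, with the index, Cox6c (0.12), Sdhb (0.27) and Uqcrb (0.19) at GD19 and Cox15 at GD18 (−0.45), GD19 (−1.71) and GD20 left (−0.22), and, with array A or D alone, Uqcrb (0.060) and Cox15 (−2.06) at GD19 and Cox15 (−0.44) at GD18. The cause was not tested.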
